A study of Arabidopsis thaliana with 14 samples.

Results

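The binding map of FLAG-CPSF70 in Arabidopsis seedlings consists of 6414 CLIP peaks, which are the peaks on the nuclear chromosomes in replicate 1 that were overlapped by at least 1 nt by a peak of replicate 2. Replicates are numbered by the sample titles, although the names inside the CLIP tables number them the other way round. Replicate 1 held 14606 nuclear peaks and replicate 2 held 12427, so the shared peaks made up 43.9% of the first list, and 6409 peaks (51.6%) of the second list took part in the overlap. The 14 samples of the series form 7 groups of 2. The CLIP peaks came from 12-day seedlings of a CPSF70 overexpression line, pulled down with anti-FLAG beads after formaldehyde crosslinking. The same pull-down from wild-type seedlings was not analysed here. Poly(A) sites were measured in wild-type Col0 and in the cpsf70 mutant, both as 12-day seedlings, by sequencing from the poly(A) tail, and m6A was mapped with an antibody in wild-type seedlings of 14 days. RNA-seq of 12-day wild-type and cpsf70 seedlings entered through a table of selected genes. The tagged protein was overexpressed, no label gives the promoter or the number of lines, and whole seedlings mix many cell types. No label says that replicates were grown separately, so the spread between them may be technical. The background for peak calling is unknown here.

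CPSF70 is the longer protein of the CPSF30 locus. It joins the zinc fingers of CPSF30, a subunit of the complex that recognises poly(A) signals and cleaves nascent transcripts, to a YTH domain, which binds the methylated base m6A. Plant poly(A) signals comprise a far upstream element, a near upstream element and the cleavage site itself, and most m6A of plant messenger RNA lies close to the stop codon and in the 3′ untranslated region. The peak tables therefore address where the protein with both activities sits on transcripts. No genome sequence was used here, so no sequence is printed and no motif was searched.

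The shared peaks were short and of moderate enrichment. Their median length was 58 nt, against 52 and 53 nt over all nuclear peaks of replicates 1 and 2. The median fold enrichment, the authors' value for each peak, was 4.89 in replicate 1 and 5.08 in replicate 2. Peaks found in a single replicate were weaker, with medians of 3.57 for the 8192 peaks of replicate 1 alone and 3.77 for the 6018 peaks of replicate 2 alone. Across the 6414 shared peaks the log2 folds of the replicates correlated with r = 0.69, a description across peaks and not across samples. Nearly all shared peaks (6256, or 97.5%) touched an annotated gene, and 158 lay outside genes. A further limit is that 659 peaks touched more than 1 gene. Peaks carry no strand, and each such gene was credited with the peak.

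Along protein-coding genes the map leaned strongly to the 3′ end. Of the 4609 shared peaks that touched a single protein-coding gene with a poly(A) level and an inferred strand, 2025 (43.9%) had their midpoint in the last 10% of the gene span and 60.7% in the last 20%. The last 10% held 31.2% of all peaks of replicate 1 and 36.2% of those of replicate 2. It held 19.4% of the peaks found in replicate 1 alone and 27.2% of those found in replicate 2 alone, so the lean was seen in every set and was greater in the shared peaks. Equal parts would hold 10% each. The median peak lay 264.5 nt before the gene end. A smaller number lay at the other end of genes, with 245 peaks in the first 10% of the span and 316 in the next 10%, against 156 to 185 in each 10% from 20 to 60% of the span.

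**Figure D1:**
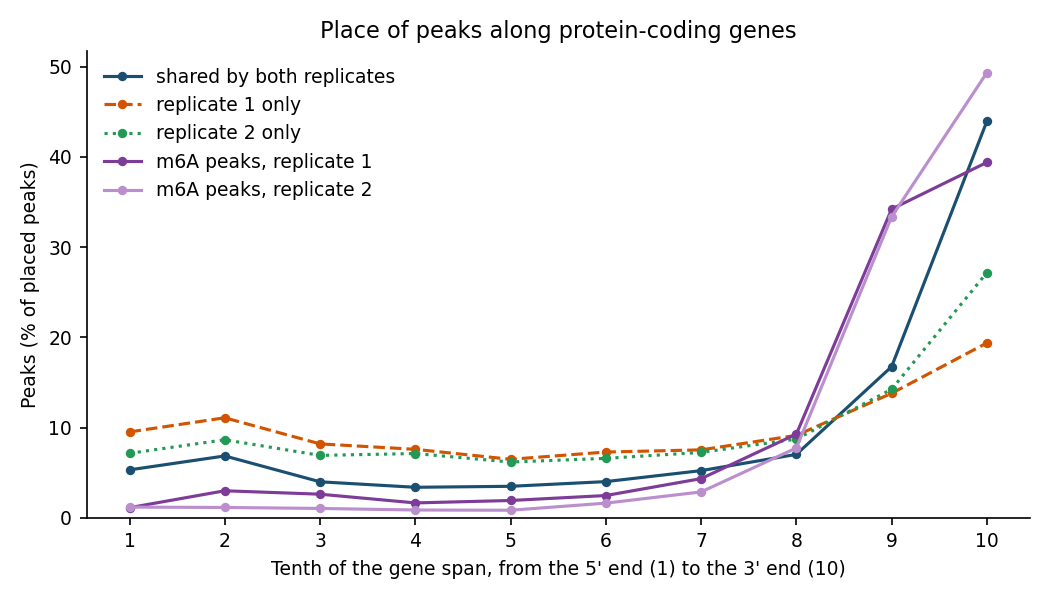
The share of placed peaks (y axis, %) is plotted for each 10% of the gene span (x axis, 5′ to 3′) for CLIP peaks shared by both replicates, CLIP peaks of a single replicate and m6A peaks of each wild-type replicate. All lines rise toward the 3′ end, to 43.9% for the shared CLIP peaks, and the CLIP lines have a second, lower rise in the part from 10 to 20% of the span.

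Peaks of m6A lay still closer to the 3′ part as a whole. The last 20% held 73.6% and 82.7% of the m6A peaks of the wild-type replicates, against the 60.7% of shared CLIP peaks, and the first 20% held 4.12% and 2.34% of them, against 12.2%. In the last 10% alone the shared CLIP peaks, at 43.9%, stood between the m6A replicates at 39.4% and 49.3%. The lists come from different plants, ages and peak lengths, since m6A peaks had median lengths of 357 and 355 nt, so these shares are given side by side without a test.

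The concentration at gene ends was sharper when measured from the poly(A) sites in use. Col0 poly(A) clusters are groups of neighbouring cleavage positions, and 22614 of them were listed in both Col0 tables. Of the shared peaks, 2379 (37.1%) had their midpoint within 50 nt of the midpoint of such a cluster, 3027 (47.2%) within 100 nt and 55.6% within 200 nt, while 29.95% were more than 1000 nt away. Within 100 nt lay 28.9% of all peaks of replicate 1 and 35.9% of those of replicate 2. Of the peaks in a single replicate, 14.6% and 23.3% lay that close. Of the 3027 near peaks, 1948 (64.4%) were upstream of the cluster and 1055 downstream, with a median position of 11 nt upstream. The densest 25 nt were those directly upstream of the cluster midpoint, with 904 peaks, followed by the 25 nt directly downstream, with 772. Beyond 50 nt downstream the counts fell off to 60 and 40 peaks per 25 nt, whereas 313 and 238 peaks lay in the upstream bins between 50 and 100 nt. Among the near peaks, 171 (5.65%) had clusters on both strands within reach, so that upstream and downstream depend on which of them is nearest.

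**Figure D2:**
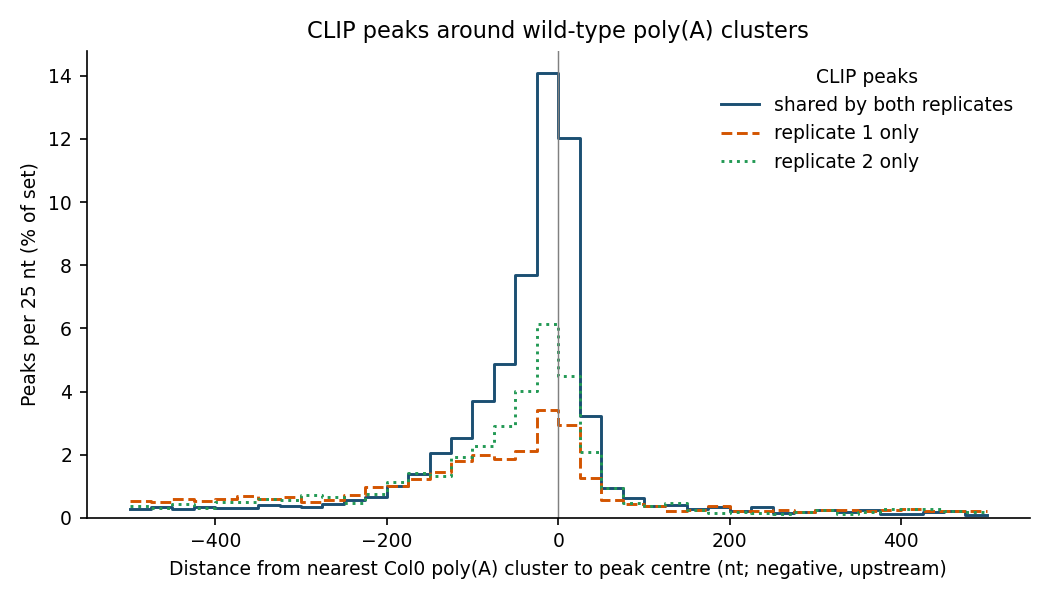
The share of CLIP peaks per 25 nt (y axis, % of each set) is plotted against the distance of the peak midpoint from the nearest Col0 poly(A) cluster (x axis, nt, negative upstream), for shared peaks and for peaks of a single replicate. The shared peaks reach 14.1% in the 25 nt directly upstream of the cluster, and the upstream flank is broader than the downstream one in all sets.

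The share of gene span near a cluster gives the scale for these values. In the 10536 protein-coding genes with a poly(A) level, 9.22% of all positions lay within 100 nt of a cluster midpoint, against 56.9% of the midpoints of the 4609 placed peaks. Within the last 20% the figures were 34.2% of positions and 80.8% of 2797 peak midpoints. In the middle they were 3.38% of positions and 25.7% of 1251 peaks. In the first 20% they were 1.73% of positions and 6.95% of 561 peaks. In bound genes alone the shares of positions were 37.2% in the last 20%, 4.42% in the middle and 2.52% in the first 20%. Peak midpoints were thus more often near a cluster than positions of the span in each part of the gene, and most of those in the first 20% were near none. Genes differ in their number of clusters, for which these shares are not adjusted.

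The position of a peak midpoint has a limit that can be read from short RNAs of known length. At small nucleolar RNAs, a median of 87 nt long, 48 peaks touched no other gene and had an inferred strand. In 48 of 48 the peak midpoint lay downstream of the midpoint of the RNA, by a median of 54.5 nt. This count does not fix a direction, because strand was inferred from nearby Col0 poly(A) tags, and CLIP peaks concentrate near poly(A) clusters. Among tRNA genes 0 of 1 such peaks lay downstream (−23 nt), and among small nuclear RNAs 5 of 5 (70.5 nt). Without regard to strand, the midpoints lay a median of 54.5 nt apart over 82 small nucleolar RNA peaks and 43 nt over 113 tRNA peaks. Of 113 peaks at single tRNA genes, 113 extended beyond the gene, by a median of 38 nt. Whether this offset also holds for messenger RNA was not tested, so distances of about this size to a cluster do not fix the side on which the protein sat.

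Many peaks coincided with m6A, mostly at gene ends. Of the shared peaks, 3374 (52.6%) overlapped an m6A peak of replicate 1 and 3231 (50.4%) one of replicate 2, and 3114 (48.6%) overlapped both. By distance to the nearest cluster the share that overlapped both was 73.6% within 50 nt, 79.6% from there to 100 nt, 37.1% from there to 1000 nt and 15.8% beyond that. By place it was 81.9% in the last 20%, 19.7% in the middle and 3.74% in the first 20%. m6A peaks themselves covered 41.3% of the positions of the last 20% in both replicates, 2.94% of the middle and 0.823% of the first 20%, while 75.4%, 17.8% and 3.39% of the CLIP midpoints fell inside them. The overlap share at gene ends is therefore to be read against a last 20% of which m6A peaks already fill a large part.

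The fold of a peak differed little with its place. The median of the mean fold of the replicates was 5.24 in the first 20%, 4.76 in the middle and 5.12 in the last 20%, and 5.12 within 50 nt of a cluster against 4.80 beyond 1000 nt. The 561 peaks of the first 20% lay at a median of 270 nt from the gene start (quartiles 194.5 and 368 nt). The 6 of them with the highest folds are given as examples. The first, at AT1G77550 (19.5-fold and 16.5-fold in replicates 1 and 2), coincided with the glutamine tRNA gene AT1G77560. Its midpoint lay 33.5 nt before the start of AT1G77550, and the peak of replicate 2 did not reach that gene. The third, at AT3G51140 (16.7-fold and 10.7-fold), coincided with a glutamate tRNA gene, AT3G51135. The second lay in AT2G34770, a fatty acid hydroxylase gene (16.2-fold and 13.7-fold), where a transcribed pseudogene is also annotated. The other members stood in a single gene each. These were AT4G27130, a translation initiation factor of the SUI1 family (15.5-fold and 9.46-fold, 256.5 nt from the start), the ubiquitin-conjugating enzyme gene UBC8 (11.7-fold and 11.8-fold, 334.5 nt) and AOC1, an allene oxide cyclase of jasmonate synthesis (11.6-fold and 11.8-fold, 276.5 nt). These 6 thus include peaks in a single protein-coding gene and peaks on tRNA genes that lie there. Chosen by fold, they do not show how often either kind occurs among the 561.

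Where a gene has more than 1 poly(A) site, the peak was mostly at the distal one. In 1603 genes the most abundant clusters of Col0 lay at least 300 nt apart as a pair, and a shared peak lay within 100 nt of the distal cluster only in 486 genes, of the proximal cluster only in 37, of both in 40 and of neither in 1040. Distal clusters were also the more abundant, with a median of 20.9 against 7.70 TPM. The 535 pairs within 2-fold of each other in TPM had medians of 8.80 and 8.42 TPM, and there the counts were 116 distal only and 12 proximal only. With all peaks of replicate 1 they were 145 and 30, and with those of replicate 2 they were 169 and 19. In the 391 genes whose proximal cluster was the more abundant (median 14.8 against 6.75 TPM), 64 had a peak at the distal cluster only and 13 at the proximal cluster only. The excess of distal peaks was thus present at like abundance and against it. The genes UBQ10 (211.7 and 11.5 TPM at the distal and proximal clusters), FBA2 (677.2 and 27.2 TPM), an aldolase of the Calvin cycle, and HA2 (76.6 and 12.1 TPM), a plasma membrane proton pump, had a peak at the distal cluster alone, in the shared list and in each replicate.

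A gene was called bound where a shared peak touched its span. Among the 10536 protein-coding genes with a poly(A) level in Col0, 3806 were bound, or 36.1%. All peaks of replicate 1 touched 6200 of them (58.8%) and all peaks of replicate 2 touched 5881 (55.8%). Most bound genes, 2884, held a single shared peak, 729 held 2, 150 held 3, 30 held 4, 12 held 5 and 1 held 6. Among 16908 protein-coding genes without a usable level, 1123 (6.64%) were bound.

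Bound genes were the more abundant ones. The bound share rose over the quintiles of poly(A) level from 20.3% through 23.3%, 34.1% and 41.6% to 61.4%. With all peaks of replicate 1 it went from 44.2% to 77.6% and with those of replicate 2 from 40.1% to 76.6%. The median level was 22.7 TPM in bound genes and 10.5 TPM in the others. The number of shared peaks per 100 kb of span went from 7.75 in the lowest quintile to 40.8 in the highest, although the median span was shorter there (1988 against 2619.5 nt). The bound share rose further, to 71.5%, in the most abundant 5% of genes. Longer genes were bound more often at like level. In the lowest quintile 13.8% of the shortest and 24.04% of the longest tercile were bound, and in the highest quintile 57.9% and 63.2%. A poly(A) level measures the transcripts of whole seedlings, in which more cells that express a gene and more RNA per cell cannot be told apart. The number of clusters went along with the level: 25.7% of genes with 1 cluster were bound and 94.8% of the 77 genes with 10 or more.

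**Figure D3:**
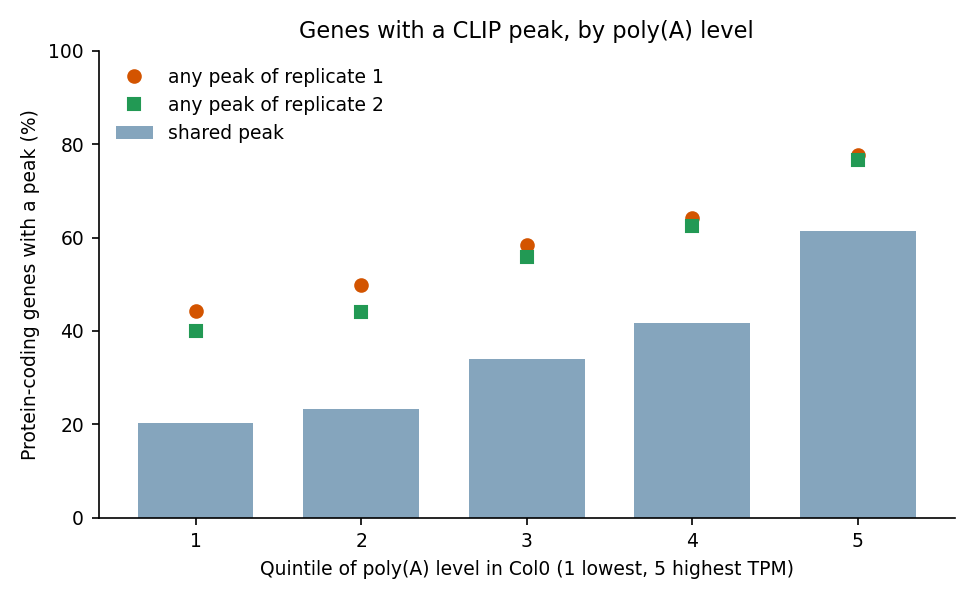
The share of protein-coding genes with a CLIP peak (y axis, %) is plotted for the quintiles of Col0 poly(A) level (x axis), with bars for shared peaks and points for all peaks of each replicate. The bars go from 20.3% to 61.4%, and both replicates rise in the same order.

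The gene with the most shared peaks was the tagged locus itself. CPSF30 (AT1G30460) held 13, with mean folds from 4.51 to 20.7, and the highest of all shared peaks lay in it (TAIR10, chromosome 1, 10773301 to 10773467), at 19.4-fold in replicate 1 and 21.9-fold in replicate 2. The line overexpresses a protein of this locus, and transgene and endogenous transcripts cannot be told apart here. Its poly(A) level was not analysed here. AT2G48080, on chromosome 2, held 9 peaks spread over a span of 2203 nt, from 3.45-fold to 7.24-fold in the mean of the replicates, and the nearest cluster in both Col0 tables was 1161 nt or more from each of them. SEX1, the glucan water dikinase that starts starch breakdown, held 6 peaks over a span of 10099 nt. These had mean folds of 3.99 to 8.26, none of them within 100 nt of a cluster. They fell into 3 peaks from 354.5 to 911.5 nt before the gene end and 3 from 7149.5 to 9618 nt before it. Of the genes with 5 peaks, 12 of them protein-coding with a level, those of highest poly(A) level were the photosynthesis genes LHCA1, LHCA2, CAB1, LHCB4.1 and RCA, the cell wall extensin gene EXT3 and AT2G03875. The peaks of AT2G03875 were weak (mean folds of 2.301 to 2.732) and merged over a span next to ribosomal RNA genes. The longest of all shared peaks, at 2327 nt, lay in the non-coding gene AT3G06365 on chromosome 3.

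Of the 10 shared peaks with the highest folds, 7 lay within 100 nt of a poly(A) cluster. After CPSF30, the peak at AT1G77550 and its tRNA neighbour, and a peak at a small nucleolar RNA (AT1G04517, 16.7-fold and 18.5-fold, shared with AT1G08875), most others lay upstream of the cluster of a protein-coding gene. AT1G27350 had 14.0-fold and 18.6-fold, 48 nt upstream of its cluster. HTA12, a histone H2A gene, had 14.3-fold and 18.1-fold at 76.5 nt upstream. AT2G34310 had 14.3-fold and 17.1-fold at 60 nt, and ATR2, a reductase that serves cytochrome P450 enzymes, had 14.9-fold and 16.4-fold at 74 nt. FBP, the cytosolic fructose bisphosphatase of sucrose synthesis, had 14.3-fold and 16.6-fold at 8.5 nt. A peak at the RNA polymerase II subunit gene NRPB11, also touching chx28, had 16.2-fold and 15.0-fold at 13 nt. All 6 of these protein-coding peaks overlapped m6A in both wild-type replicates. The remaining peak, at AT5G09755, was a glutamate tRNA gene (15.4-fold and 15.8-fold).

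Among genes grouped by function, those of the photosynthetic light reactions were bound most often. The lists were matched by gene symbol. Only members with a poly(A) level were counted, as with 205 of 704 for the transcription factors. Each list is set beside the sum of the bound shares of its members' poly(A) quintiles. That sum is the number bound at like level over all genes. Of 47 measured members of the light reactions, 42 were bound, against 28.3 at like level, and 33 held more than 1 peak. All peaks of replicate 1 touched 45 members (36.1 at like level) and those of replicate 2 touched 43 (35.5). The quintile is coarse for these genes, whose median level was 1603 TPM, and over 20 bins of level the comparison was 42 against 32.8. The highest of these bins starts at 154.65 TPM, so it is coarse for them too. Of the 77 genes with 10 or more clusters, whose median level was 1196 TPM, 94.8% were bound. That set includes members of this list, such as LHCA1. An excess over genes of truly like level is therefore not established. Light-harvesting genes led the list. LHCA1 had a poly(A) level of 6779 and 5335 TPM in the Col0 libraries and 5 shared peaks, and LHCA2 4302 and 3410 TPM and 5 peaks. LHB1B2 (7937 and 6573 TPM), LHCB5 (5397 and 4185 TPM) and LHCA4 (5146 and 3617 TPM) had 3 each. All 3 peaks of LHB1B2 and 1 of those of LHCA4 also touched another gene, to which they may belong. The 5 unbound members were LHCB4.2 (1200 and 954 TPM), PSAD-1, PETE1, Lhca6 and LHCB4.3, and of these PETE1, a plastocyanin gene at 218.1 and 156.7 TPM, had no peak in either replicate. CAB1 and CAB3 are near-identical genes whose reads the mapping could have split or shared.

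In these genes peaks were spread over the span and not confined to the 3′ end. LHCA2 had peaks at 235.5, 608.5, 803, 1126 and 1663.5 nt before the gene end. The peak nearest the end lay at a cluster of 493 TPM in Col0 (0.5 nt away) and the others near clusters of 4.39 to 14.8 TPM. LHCB4.1 had its highest folds (5.54 and 5.19 in replicates 1 and 2) at 162 nt before the end, near a cluster of 484.2 TPM, and 4 weaker peaks further upstream. The abundant genes have many small clusters, 24 in LHCA2 and 23 in LHCA1 and LHCB4.1, and all 5 peaks of each of these genes lay within 100 nt of one. Their spans are only 1673 to 1931 nt long, so a peak at many other positions would also lie that close. The share of these spans near a cluster is not given here, so this nearness is not read as placement at poly(A) sites. In the highest quintile 34.9% of placed peaks lay in the last 10%, against 48.3% to 51.7% in the other quintiles. PSBR, a photosystem II subunit gene, differed from this pattern with a single shared peak of 9.51-fold and 8.62-fold, 1 nt from a cluster of 3163 TPM.

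**Figure D4:**
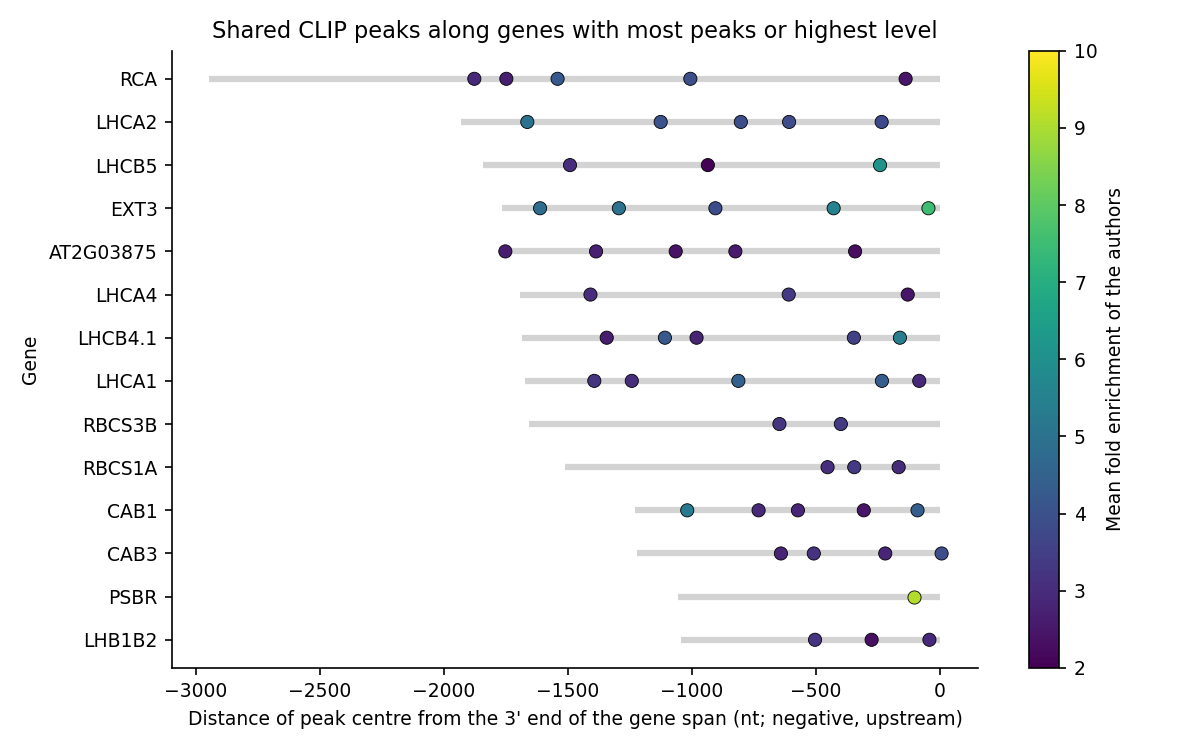
Shared CLIP peaks (points, coloured by the mean of the authors' fold of both replicates) are placed along the span (grey) of genes with the most peaks or the highest poly(A) level, with the distance from the 3′ end on the x axis (nt). Genes of the light-harvesting complex hold peaks over most of their span, and PSBR a single peak near the end.

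The Calvin cycle list had 14 of 20 bound, against 12.1 at like level, a difference that did not keep its sign with the peaks of replicate 1 alone (15 against 15.4). RBCS1A, a gene of the small Rubisco subunit (8743 and 6182 TPM), had 3 peaks and the Rubisco activase gene RCA (1320 and 1051 TPM) 5. The regulators CP12-1 (887.2 and 654.1 TPM) and CP12-2 (193.5 and 178.8 TPM) and the bisphosphatase gene HCEF1 (300.1 and 231.8 TPM) were unbound. Vacuolar and plasma membrane ATPases had 11 of 14 bound, against 6.98, among them the proton pumps AVP1 (2 peaks), HA2 (3) and HA1 (1). The 3 unbound members, VHA-E3, HA3 and HA5, were among those of low level (13.7 and 11.1 TPM for VHA-E3) and had no peak in either replicate. Aquaporins had 13 of 21 bound, against 9.61. TIP2 (550 and 469.9 TPM) was bound and PIP2E (364.2 and 286.3 TPM) was not.

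Genes of jasmonate synthesis and signalling were bound in 16 of 19 cases, against 7.37 at like level. The count was 16 against 11.6 with all peaks of replicate 1 and 17 against 11.01 with those of replicate 2. The list covers the synthesis enzymes LOX2 (1 shared peak), AOS (2), AOC2 (3) and OPR3 (1), the receptor COI1 (1), the transcription factor MYC2 (2) and its repressors JAZ1 (2), JAZ3 (1), JAZ6 (2) and JAZ12 (1), and the response gene VSP2 (1). AOC4, MYC3 and JAR1 were the unbound members, at 22.3 and 12.0 TPM for AOC4 in the Col0 libraries and less than 10 TPM for the others. Peaks lay in different parts of these genes. LOX2 had its peak (6.68-fold and 9.95-fold) 35 nt before the gene end, 12.5 nt upstream of a cluster. In MYC2 the peaks lay 1903.5 and 2614 nt before the end and also touched the neighbour AT1G32630, and in VSP2 the peak (5.78-fold and 7.07-fold) lay 1237.5 nt before the end.

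Salicylic acid defence genes had 5 of 12 bound, against 3.67, with the WRKY factors WRKY40, WRKY53, WRKY18 and WRKY54 and the regulator EDS1 bound and WRKY70, PR1 and PAD4 not. The difference was lost with the peaks of replicate 1 alone (6 against 6.52). Abscisic acid genes stood at the background, with 11 of 27 against 10.7. The dehydrin and cold genes ERD10, ERD14, COR47 and KIN2 were bound by 1 peak each, with ERD14 at 8.27-fold and 11.6-fold, 7 nt upstream of a cluster. The receptors PYR1 (121.8 and 90.0 TPM) and PYL4 (114.9 and 93.0 TPM) had no peak in either replicate.

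RNA-binding protein genes were another group above the background. Glycine-rich and hnRNP-like proteins had 16 of 23 bound, against 10.1, and SR splicing factors 10 of 16, against 5.70. GRP7, a clock-regulated glycine-rich protein (3006 and 2306 TPM), had 1 shared peak of 5.39-fold and 4.93-fold, 20.5 nt upstream of a cluster. Its close relative CCR1 (AT4G39260, also named GRP8), at 894.1 and 807.4 TPM, had none in either replicate. Among the SR genes SR45 held 3 peaks, the highest at 12.9-fold and 15.1-fold, while RSZ22 (38.3 and 32.0 TPM), an SR gene of higher level, had none in either replicate.

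Among the genes of the polyadenylation machinery with a level 5 of 11 were bound, against 3.44. CPSF30, which held 13 shared peaks, is not among the 11. With all peaks of replicate 1 the count was 10 and with those of replicate 2 it was 5, against 6.02 and 5.67 at like level, so the comparison turned between replicates. The poly(A) polymerases PAPS1 (2 peaks) and nPAP (3), the poly(A)-binding protein genes PAB2 (3) and PAB8 (1) and the cleavage factor gene CSTF64 (1) were bound. PAPS2, PABN1, CPSF73-I, FY and CSTF77 had peaks in replicate 1 alone, and ESP1 in neither. Of the m6A writers, erasers and readers 2 of 8 were bound, against 2.37. These were the YTH readers ECT2, with peaks of 8.41-fold and 8.76-fold and of 4.06-fold and 4.28-fold at 2552 and 3078.5 nt before the gene end, and ECT1. The writer MTA and the readers ECT3 and ECT4 had no peak in either replicate.

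Of the lists of protein synthesis and turnover, the proteasome and ubiquitin list, the largest of them, had the widest gap counted in genes. As shares, it had 62.8% bound against 47.1% at like level, and cytosolic ribosomal proteins 72.7% against 57.9%. The gap in shares was wider for plastid ribosomal proteins (80% against 61.4%) and translation factors (63.2% against 45.6%). Cytosolic ribosomal proteins had 24 of 33 bound (19.1 at like level), plastid ribosomal proteins 8 of 10 (6.14), translation factors 12 of 19 (8.67) and the proteasome and ubiquitin list 49 of 78 (36.7). Over 20 bins of level the numbers were 21.1 for the cytosolic and 6.83 for the plastid ribosomal proteins, and with the stricter peak threshold the gap of the translation factors was −0.01 genes. None of these gaps was tested. Examples are the E2 enzyme gene UBC10 (505.5 and 435.7 TPM, 3 peaks) and UBQ10 (492.9 and 383.2 TPM, 3 peaks), whereas UBC9 (176.4 and 129.9 TPM) and the proteasome gene PAA1 (87.3 and 80.2 TPM) were unbound. The symbols do not fully separate the ribosomal lists: plastid proteins, SSR16, RPL12-A and RPL15 among them, were counted with the cytosolic ones. Tubulins and actins had 13 of 20 bound, against 9.93, and antioxidant enzymes 17 of 30, against 15.0. The superoxide dismutase gene FSD1 (1321 and 1071 TPM) held 4 peaks, and the thioredoxin gene TRX3 (570.7 and 452.7 TPM) none in either replicate.

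Other lists had fewer bound members than the number at like level, some by only 1 or 2 genes, and none of these gaps was tested. Cytochrome P450 genes had 13 of 65 bound, against 23.0, and with the peaks of replicates 1 and 2 the counts were 32 against 37.9 and 29 against 35.9. CYP79B2 (565.1 and 248.2 TPM), an enzyme of indole glucosinolate synthesis, had 1 peak, and CYP72A13 (84.5 and 75.8 TPM) none in either replicate. Transcription factors had 58 of 205, against 70.8. Among the bound members of high level, GRF6 and GRF9 are 14-3-3 proteins and ARF1 is here an ADP-ribosylation factor (AT1G23490), which the matching by symbol did not separate. Histones had 4 of 17, against 7.89. HTA9 (282.6 and 205.9 TPM) had no shared peak, while HTA12, at 7.65 and 4.31 TPM, had one of the highest folds of the map. Heat shock proteins and chaperones had 11 of 26, against 13.1, with HSC70-1 (648.8 and 608 TPM) at 4 peaks and the plastid chaperonin genes CPN60B (238.1 and 193.3 TPM) and CPN60A without a peak in either replicate. Clock genes had 5 of 18, against 6.40, and 10 against 10.6 with all peaks of replicate 1. LCL1, a MYB-like clock factor, held 5 peaks at 62.5 and 32.0 TPM, while PRR5, TOC1 and PRR7 were bound in at most 1 replicate.

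The remaining lists had gaps of less than 4 genes. Flowering regulators had 7 of 20 bound (6.66 at like level), with SVP and GI at 2 peaks each. Nitrate genes had 10 of 20 (9.10), a difference that turned its sign with the peaks of either replicate alone. There NIA2, a nitrate reductase gene (158.1 and 139.4 TPM), had 3 peaks and its relative NIA1 (105.8 and 111.7 TPM) none in either replicate. Protein kinases had 40 of 109 (36.7) and cell wall genes 40 of 90 (36.5), among which CAB1 and CAB3 had been matched by symbol. Of the genes discussed for this reader, HOG1 had 2 peaks and AGL20, the flowering gene SOC1, 1 peak of 3.11-fold and 3.02-fold (TAIR10, chromosome 2, 18807643 to 18807692), 69 nt upstream of a cluster and on m6A in both replicates. RPN10 had a peak in each replicate but no shared one, and AT1G20110 (FYVE1) a peak in replicate 2 alone. In all, 21 of the 27 lists were above the number at like level, so the lists as a whole were bound somewhat more than other genes. The lists differ in the spread of level within a quintile and in gene length, and single differences of a few genes are not read as a property of the list.

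**Figure D5:**
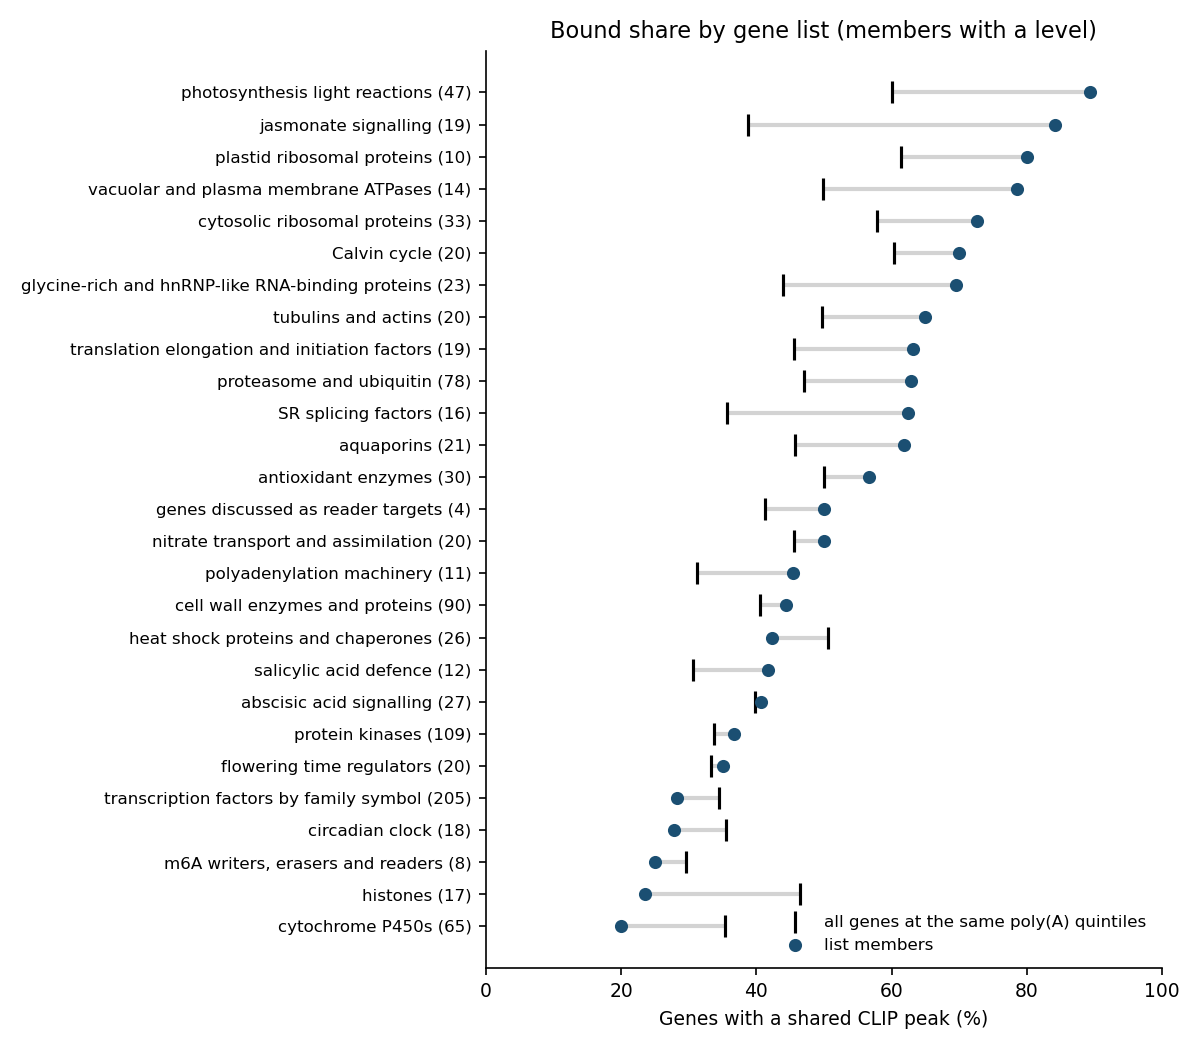
For each gene list (number of members with a poly(A) level in brackets), the share bound by a shared CLIP peak (points, x axis in %) is plotted beside the share of all genes at the same quintiles of poly(A) level (ticks). The light reactions reach 42 of 47, the jasmonate list lies furthest above its tick, and histones and cytochrome P450 genes lie furthest below theirs.

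Some genes of high poly(A) level had no peak at all. The 10 unbound protein-coding genes of highest level in Col0 were AT5G66675 (18783 and 39171 TPM), UGT72E2, a glucosyltransferase of phenylpropanoids (16982 and 20846 TPM), the meiotic cyclin SDS (4248 and 7459 TPM), AT1G55947, AT5G20220, AT5G56220, sks7, AT2G15345, AT5G66840 and PXY, a receptor kinase of vascular tissue (747 and 1247 TPM). They had 1 to 3 clusters each, fewer than the 18 to 29 clusters of the 10 bound genes of highest level, and none had a peak in either replicate. Each of these levels thus rests on few clusters, as in SDS with 1. Whether the levels reflect transcript abundance was not tested, so these genes are not read as abundant transcripts without binding. In 4 of them, sks7, AT2G15345, AT5G56220 and AT5G66840, the level rested mostly on a single library, as in AT5G56220 with 4754 and 12.1 TPM and AT5G66840 with 3.98 and 2748 TPM.

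Short non-coding RNA genes were bound as well. Shared peaks touched 171 of 287 small nucleolar RNA genes (59.6%), 31 of 82 small nuclear RNA genes (37.8%), 145 of 625 tRNA genes (23.2%) and 42 of 326 miRNA genes (12.9%), against 4929 of 27444 protein-coding genes with or without a level (18.0%). Many of these peaks also touched another gene, to which they may belong. Peaks that touched no other gene lay at 84 small nucleolar RNA, 16 small nuclear RNA, 113 tRNA and 27 miRNA genes. For protein-coding genes that number was 4151. All peaks of replicates 1 and 2 touched 178 and 222 small nucleolar RNA genes and 221 and 160 tRNA genes. Peaks that touched a tRNA gene and no other gene had a median mean fold of 7.75, against 4.96 at protein-coding genes. Among tRNAs the bound share differed widely with the amino acid: histidine tRNA genes had 10 of 10 bound, glutamine 15 of 17, glutamate 20 of 24, cysteine 11 of 15 and glycine 23 of 41, while isoleucine had 0 of 22, methionine 0 of 24 and tyrosine 4 of 75. Copies of a tRNA gene are near-identical, so a read cannot be assigned to 1 copy with certainty and the copies of an amino acid are not independent.

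Among peaks on a tRNA gene alone, the 4 strongest were at glutamate genes, from 15.4-fold and 15.8-fold at AT5G09755 to 15.3-fold and 13.5-fold at AT5G66755. Among miRNA genes MIR393b had 16.0-fold and 12.9-fold, MIR166e 14.9-fold and 12.2-fold, MIR157c 12.8-fold and 12.2-fold and MIR173 11.4-fold and 10.2-fold. Among small nuclear RNAs U2.2, of the spliceosome, had 11.3-fold and 10.6-fold and U4.8 10.3-fold and 10.1-fold. These genes were named after their values had been seen. Per the labels' protocols, the CLIP RNA went into a small RNA library kit. The part that size selection or abundance of short RNAs had in these peaks was not tested.

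The mutant shows whether bound poly(A) sites changed in abundance. Clusters of the 4 poly(A) tables joined into 13668 sites listed in all of them, of which 3225 (23.6%) had a shared peak within 100 nt. limma with Benjamini-Hochberg adjustment called 301 sites (2.2%), of which 84 (0.615% of the sites tested) were higher and 217 (1.59%) lower in cpsf70. Of the bound sites it called 60, or 14 higher and 46 lower. The lowest listed value was about 3 TPM in both Col0 tables and in cpsf70 replicate 2, and 0 in cpsf70 replicate 1. A tested site had to be listed in all 4 tables, so sites of low abundance had little room to fall. In the lowest quintile of abundance 5 bound and 24 unbound sites were called higher, and 0 of either lower. The part of this limit in the called shares and their direction was not tested. The called share differed with abundance, and in the most abundant quintile 2.49% of 1206 bound sites were called against 6.94% of 1527 unbound ones, with median changes of 0.06 and −0.09 on the log2(TPM + 1) scale. Both medians turned with the library used: without cpsf70 replicate 1 they were −0.13 and −0.23, and without cpsf70 replicate 2 they were 0.24 and 0.09. The difference between these shares was not tested. In the other quintiles the called share of bound and unbound sites was 1.64% and 0.987%, 0.490% and 0.731%, 1.28% and 1.28%, and 2.11% and 3.34%, from the lowest up.

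The bound sites that fell most lay in HOG1, AT1G09310, AT4G22310, PRPL28 and PKP-BETA1. At AT1G09310 (chromosome 1, 3009687 to 3009901) the Col0 libraries gave 458.4 and 433.6 TPM and the cpsf70 libraries 27.6 and 23.7 TPM, and its peak had 2.42-fold and 3.74-fold. This fell by 4.07 on the log2(TPM + 1) scale (SE 0.49, limma, Benjamini-Hochberg adjusted p = 1.2e-13). In this fit all the named sites had the same SE of 0.49, so neither SE nor p measures the spread at this site. The adjusted p was 0.0416 after rescaling, 0.0244 with absent values set to 0 and 0.224 with the replicate number as a block, where the call was lost. At AT4G22310 (chromosome 4, 11792756 to 11792858) it went from 105.5 and 80.8 TPM to 6.69 and 3.78 TPM, a fall by 3.94 on that scale. In both, the libraries of the genotypes did not overlap. The largest called rise at a bound site, 2.41 at AT1G72920, had libraries that overlapped between genotypes (3.93 and 385.7 TPM in Col0, 206.7 and 257.2 TPM in cpsf70). Among bound sites whose libraries did not overlap, that of AT4G40040, a histone H3.3 gene, rose most. It rose by 2.303 on that scale (Col0 libraries at 5.42 and 3.08 TPM, cpsf70 libraries at 16.6 and 35.2 TPM). Next were the cold-induced gene KIN2 at 2.05, AT5G61590, an ERF transcription factor, at 1.98, the autophagy gene ATG8F at 1.88 and the polyubiquitin gene UBQ3 at 1.88. In Col0 replicate 2 the sites of AT4G40040, KIN2, AT5G61590 and ATG8F stood at 3.08 to 3.69 TPM, near the lowest listed value. That of UBQ3 stood at 13.2 TPM there. None of these 5 rises was called without Col0 replicate 2, without cpsf70 replicate 2 or after rescaling by median ratios (limma, Benjamini-Hochberg adjusted p = 0.167 to 0.205 after rescaling).

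These calls went together with how the clusters were drawn. The authors' cluster bounds differ between genotypes, and in 43 of the 60 called bound sites the strongest clusters of the 4 tables had no overlap in common, against 401 of 3165 uncalled ones. Sites were also limited to those whose strongest clusters overlap, an alternative added after seeing the data. Of these, 13 bound sites were called, KIN2 and ATG8F among them. The 5 falls named above and the sites of AT4G40040, AT5G61590 and UBQ3 were removed by this limit, so they were not tested again. Rescaled by median ratios, 18 bound sites were called, 0 higher and 18 lower, so the split of 14 and 46 did not hold under that scaling.

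Genes with more than 1 site were compared for the use of the distal one. Of 1944 genes limma called 11 (0.566%) with Benjamini-Hochberg adjustment. Among the 794 genes with a peak at either site it called 7, all toward the proximal site in this fit. These were HOG1, PRPL28, AT3G04840, PKP-BETA1, GPX2, AT2G04900 and AT3G56310. The 4 genes called among the 1150 with a peak at neither site also all went toward the proximal site. The direction was thus not particular to genes with a peak. In PRPL28, a plastid ribosomal gene with a peak at its distal site only (chromosome 2, 14174405 to 14174620), the Col0 libraries gave that site 198.9 and 162.0 TPM and the cpsf70 libraries 11.8 and 10.3 TPM. The proximal site stood at 13.2 and 4.77 TPM against 11.2 and 23.3 TPM. Its log2 ratio of distal to proximal was lower by 4.83 on the log2 scale (change −4.83, SE 0.56, limma, Benjamini-Hochberg adjusted p = 0.0365). In all 7 genes a strongest cluster of the pair had no common overlap, against 165 of 787 uncalled bound genes. With overlapping strongest clusters only, which removed the pairs of these 7 genes, limma called 0 bound genes (124 at an unadjusted p under 0.05). With absent values set to 0 the calls were 195 toward the proximal and 84 toward the distal site. Without Col0 replicate 1 the calls numbered 3, of which 2 were toward the distal site, without Col0 replicate 2 they numbered 0, and without cpsf70 replicate 1 or 2 they numbered 17 and 11. Both cpsf70 tables carry the same internal name and list the same 29896 clusters, with different values, and they were treated as separate libraries after their titles.

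The median change of the log2 ratio was −0.52 in the 512 genes with a peak at the distal site only, with 404 (78.9%) negative. It was −0.21 in 71 genes with a peak at the proximal site only (56.3% negative), −0.55 in 211 genes with both and −0.34 in 1150 genes with neither (69.2% negative). The groups differ in abundance, with medians of 57.9 and 8.67 TPM at the distal and proximal sites of the first group and 17.0 and 8.35 TPM in the last. The difference between the groups was not tested. The value of the first group was −0.77 without cpsf70 replicate 1 and −0.27 without cpsf70 replicate 2, so its size rests on the library used.

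Transcript levels in the mutant are known here for selected genes. Of 168 genes in the authors' deposited table of RNA-seq differences, 154 were matched to a gene and 45 were bound. Of the 76 with a poly(A) level 31 were bound, against 31.6 at like level, so the genes of the authors' deposited table were bound at the background. By direction, 25 of the 52 genes listed there as higher in cpsf70 were bound, against 22.7, and 6 of the 24 listed as lower, against 8.95. Bound genes of the authors' deposited table include HOG1 (listed fold 1.83, 2 peaks), CAB3 (listed fold 1.82, 4 peaks), LHCB2.2 (listed fold 1.67, 2 peaks), AOC1 (listed fold 1.67, 1 peak) and AZI1 (listed fold 2.08, 2 peaks) among the higher ones and VSP2 (listed fold 0.667, 1 peak) among the lower ones.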

How the data were processed

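The authors deposited 1 list of CLIP and m6A peaks per replicate. Per the file headers, each peak has a fold enrichment and a −log10 p, and none has a strand. The authors deposited poly(A) clusters with levels in TPM, per the file headers. The Col0 tables and that of cpsf70 replicate 2 list clusters of at least 3 TPM. Values in the table of cpsf70 replicate 1 go down to 0. The deposited RNA-seq table gives a fold per gene, and its FPKM values and p-values were not used. Per the submitters' processing notes, cutadapt 1.18, HISAT2 2.1.0 and MACS2 2.2.5 were used with TAIR10. Read depth, settings and the control used for peak calling are not given in the sources. The poly(A) tables of Col0 sum to 784626 and 799310 TPM, those of cpsf70 to 722675 and 703180.

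Gene spans and names came from RefSeq (assembly TAIR10.1, 37899 genes, no strand given here; exons and UTRs not used). A gene took the strand whose Col0 tags in the last 40% of the span, or up to 200 nt beyond, made up at least 90% of the tags so counted for both strands, which gave 11101 genes with a level, 10536 of them protein-coding. Sites joined clusters with at most 24 nt between them. Differences used limma 3.58.1 (R 4.3.3) on log2(TPM + 1), which understates changes of low values, with Benjamini-Hochberg adjustment at 0.05 over all sites or genes; the script was tested on simulated data. The other scripts used Python 3.11.15 and pandas 2.3.3.

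Genes named were the 10 with most peaks (ties by level), the 10 highest peaks, the 10 most abundant bound and unbound genes, the 5 largest called rises and falls whose libraries did not overlap between genotypes, and list members by level. The members, the 27 lists and the tests were chosen with earlier results of these data known. Alternatives were other peak thresholds, windows, level bins, pseudocounts, filters, scalings, a replicate block and single replicates left out. Organelle peaks were left out of the map.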

Additional observations from a re-analysis of the deposited data

Results flagged for a closer look

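CLIP peaks also lay on the organelle chromosomes, outside the nuclear map: 303 in replicate 1 (101 mitochondrial and 202 plastid) and 236 in replicate 2 (81 and 155). They are given because a nuclear RNA-binding protein was tagged and no peak list of an untagged line was analysed here. Their median folds were 3.84 and 3.86 for mitochondrial and plastid peaks in replicate 1 and 3.77 and 3.34 in replicate 2. Over all nuclear peaks the medians were 3.90 in replicate 1 and 4.28 in replicate 2. Over nuclear peaks found in a single replicate they were 3.57 and 3.77.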

How the results depend on the processing

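Peaks at or above the median −log10 p of both tables left 3801 shared peaks and 2472 bound genes, and the peaks of either replicate alone gave 5881 to 6200 bound genes and 31.2% to 36.2% of placed peaks in the last 10%. Each gene counted once by its highest peak gave 48.2% there. The share within 100 nt of a cluster was 53.2% with clusters of either Col0 table, and 28.9% to 51.4% with a CLIP or Col0 replicate left out. It was 37.1% for 50 nt and 55.6% for 200 nt. Called bound sites numbered 96 with a pseudocount of 5, 501 with absent values set to 0, 18 after rescaling, 13 with overlapping strongest clusters (an alternative added after seeing the data, as were the 20 bins of level) and 31 to 55 with a library left out. Called bound genes for site use numbered 11 with a pseudocount of 5, 279 with absent values at 0, 2 at a mean of at least 10 TPM, 0 with overlapping clusters and 0 to 17 with a library left out. The median change of genes bound at the distal site was −0.95 with absent values at 0. With the replicate number as a block limma called 0 bound sites (433 at an unadjusted p under 0.05) and 24 bound genes. Same-numbered libraries deviated together only weakly (r = 0.20 over sites, 0.06 over site use), and the numbers are not known to pair them. The cause of these shifts was not tested. For these results the other alternatives moved no count by over 1.5 times. Of the 27 lists, 10 changed the sign of their difference from the number at like level under at least 1 alternative. Without depth, no interval can be given for a peak, and a gene without a peak may lie below the limit of detection.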
